A study of Homo sapiens with 6 samples.

Results

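Genes of DNA replication were followed in MOLM-13, a leukaemia line from a human patient with an acute myeloid form of the disease, after TSN or its solvent DMSO. The 48 genes were chosen by name, by the role of their proteins at replication origins and forks. No measured value entered the rule, but earlier results of these data were known when they were chosen. All 48 were found by symbol among the 30741 genes of the expression table, and all 48 reached the level at which a gene was tested. MOLM-13 is known to carry FLT3 with an internal tandem duplication and a fused KMT2A gene, and the labels call its genotype wild type. The TSN group received 20 nM TSN for 48 h and the DMSO group received the solvent and 0 nM TSN for the same time, with 3 libraries per group. The series title names toosendanin, a plant triterpenoid, for which TSN is read here as the short form. The labels call the libraries biological replicates but do not say that they came from separate cultures, so p-values measure the spread between these libraries. The treatment field of the labels says DMSO for all 6 samples, so the titles decided the groups. Control columns lack the word DMSO in their names and were read as DMSO because DMSO is the only other group of the series, which limits every comparison.

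Before a cell copies its genome, the origin recognition complex marks replication origins, and CDC6 and CDT1 load the MCM2-7 helicase there, a step called licensing. The kinase CDC7 with its activator DBF4 then switches the helicase on, CDC45 and the GINS complex join it, and polymerases alpha, delta and epsilon copy the strands. The sliding clamp PCNA, its loader RFC, the single-strand binding protein RPA and the enzymes FEN1 and LIG1 complete the work at the fork. Many of these genes are known targets of the E2F transcription factors and are transcribed as cells approach S phase.

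Values are FPKM, fragments scaled by gene length and by library size, so levels of different genes are set side by side per length. The steps between low values of single-exon genes gave an estimated depth of 37088172 to 50527000 fragments per library. On a gene of 1 kb, 1 fragment was worth 0.0198 to 0.027 FPKM, far below the levels of all 48 genes. DMSO 1 and DMSO 2 lay closest together (r = 0.996 over genes), whereas TSN 2 and TSN 3 correlated at r = 0.913. TSN 2 correlated more highly with DMSO 1, 2 and 3 (r = 0.941, 0.944 and 0.951) than with TSN 3. TSN 3 likewise correlated more highly with DMSO 1 (0.927) and DMSO 2 (0.921), but not DMSO 3 (0.863), than with TSN 2. TSN 1 correlated at 0.982 with TSN 2 and 0.965 with TSN 3. The spread within the TSN group limits every comparison with DMSO. The genes tested had their lowest median in TSN 3, at 2.97 in log2(FPKM + 1), and medians of 3.3 to 3.46 elsewhere. The myeloid markers MPO, SPI1, CEBPA, CD33, FLT3 and ITGAM were expressed, although some differed between the groups. MPO, a granule enzyme, fell from a mean of 3567 to 2020 FPKM (limma adjusted p = 0.0221), and ITGAM, a myeloid integrin, rose from 3.242 to 11.72 FPKM (0.00789). HOXA9, MEIS1 and CD14, the rest of the 9 AML and myeloid markers listed, stayed at or below 1.134 FPKM in every library. The listed markers therefore did not all go with the name of the line. The name of the line comes from the titles and is not borne out by HOXA9 or MEIS1. Neither its KMT2A fusion nor its FLT3 duplication was checked here. The summed markers of erythroid and T cells were below 1 FPKM in every library, those of B cells below 2 FPKM, and epithelial or fibroblast markers at 4.91 to 7.04 FPKM. The megakaryocyte marker ITGA2B rose from 1.38 to 1.83 FPKM in DMSO to 3.02 to 3.41 FPKM in TSN (limma adjusted p = 0.0209). Summed T-cell markers were 0.744 to 0.905 FPKM in DMSO and 0.199 to 0.339 FPKM in TSN. The part of these marker differences in the results was not tested. The labels name no batch. In bulk RNA, more cells in S phase and more transcript per cell cannot be told apart.

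After TSN, 4 of the 48 replication genes rose and 2 fell. CDC6, which loads the helicase, rose 2.48-fold in mean FPKM, the clamp PCNA 1.98-fold, the helicase partner CDC45 1.67-fold and the polymerase epsilon subunit POLE2 1.64-fold. DBF4, the activator of the kinase CDC7, fell to 0.426 of its DMSO mean, and the origin recognition subunit ORC5 to 0.671. The other 42 genes did not pass the test, among them all 6 subunits of the MCM2-7 helicase. A gene was called at a limma adjusted p under 0.05, adjusted over all 11440 genes tested. The 6 calls are 12.5% of the members, beside 14.9% of all genes tested. By direction, 8.33% of members were called higher beside 7.71% of all genes, and 4.17% were called lower beside 7.2%. With all 6 libraries, the share of replication genes that passed was near that of the transcriptome, but it was above it in a pair of fits added with the values in view, which left out DMSO 3 and TSN 3, or TSN 3 with exon length and GC trends removed.

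The fold changes as a whole leaned upward. Of the 48 genes, 35 had a log2 fold change above 0, which is 72.9% of members beside 41.8% of all genes tested. The median log2 fold change was 0.18 for the members and -0.10 for all genes. Scaling the libraries by median log ratios moved the median of all genes to 0.00 and that of the members to 0.29. The values of the TSN and DMSO groups did not overlap in 15 members, 11 higher and 4 lower in TSN. That is 31.2% of members beside 39.2% of all genes tested. By direction, 22.9% of members lay higher without overlap beside 16.2% of all genes, and 8.33% lay lower beside 22.9%. These shares describe the list, since a test of the list was not made.

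**Figure D1:**
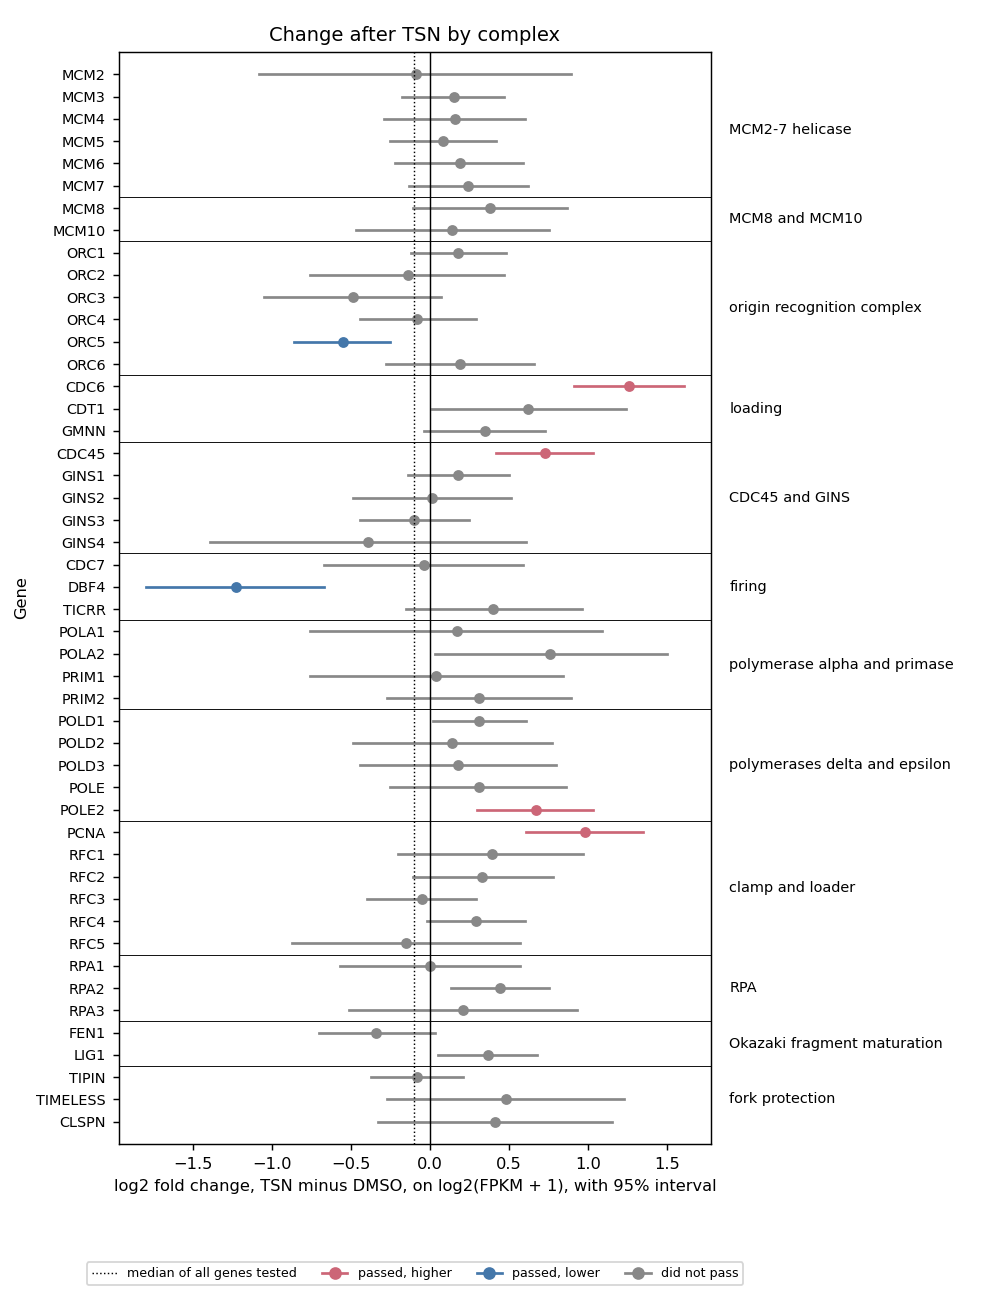
Log2 fold change of each of the 48 replication genes, TSN minus DMSO on the log2(FPKM + 1) scale, with the 95% interval of the limma fit and genes grouped by complex; the dotted line is the median of all genes tested, -0.10. The 4 genes that passed as higher and the 2 that passed as lower lie in 6 different complexes, and 35 of 48 points lie above 0.

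All 6 calls kept their direction in each of 17 processing alternatives, but not all kept the call. Leaving libraries out could not by itself reverse a direction, because the groups of these 6 genes did not overlap. The filters, plain moderation and the replicate block leave the fold change itself unchanged. The kept direction is therefore no support for the calls. CDC6 passed in 15 of 17, PCNA in 12, CDC45, DBF4 and ORC5 in 10 each, and POLE2 in 9. When a single library was left out, the calls of PCNA, CDC45, DBF4, ORC5 and POLE2 were lost without DMSO 1 (adjusted p from 0.0724 to 0.157), without DMSO 2 (0.0761 to 0.15), without DMSO 3 (0.0661 to 0.13) and without TSN 1 (0.0921 to 0.156). CDC6 lost its call without TSN 1 (adjusted p = 0.0598), and POLE2 also without TSN 2 (0.0562). Over all genes, the same fits called 312, 247, 437 and 24 genes, against 1706 with all 6 libraries. Without TSN 3, 9 members passed as higher and 2 as lower, 22.9% of members beside 22.6% of all genes.

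**Figure D2:**
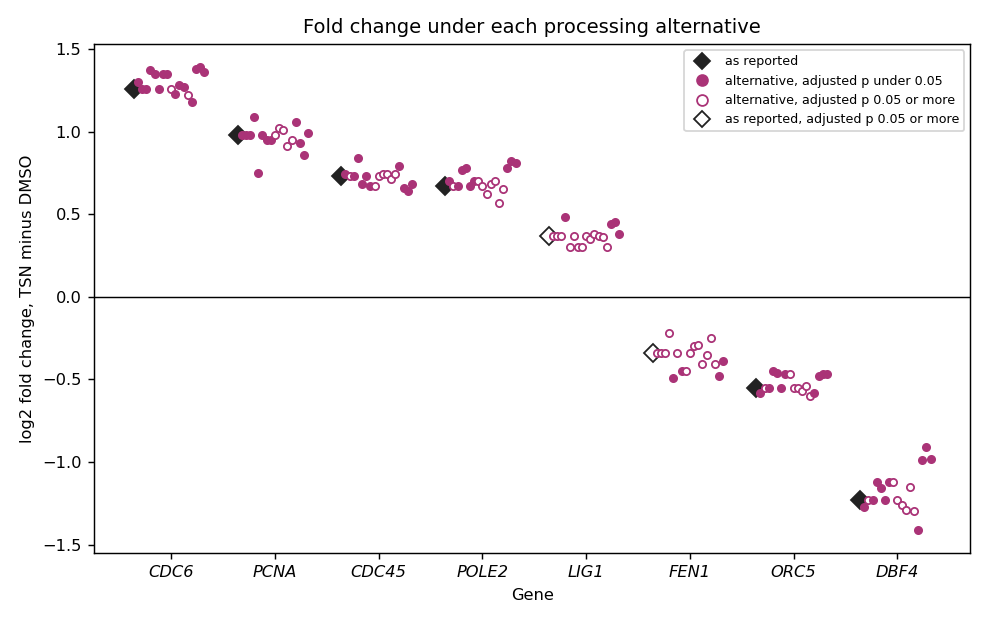
Log2 fold change, TSN minus DMSO, of the 6 called genes and of LIG1 and FEN1, as reported (diamonds) and in each of 17 processing alternatives (circles), filled where the limma adjusted p was under 0.05. No point of the 6 called genes crosses 0, but leaving libraries out could not by itself bring one across, since their groups do not overlap. CDC6 runs from 1.18 to 1.39 and DBF4 from -1.41 to -0.91.

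**Figure D3:**
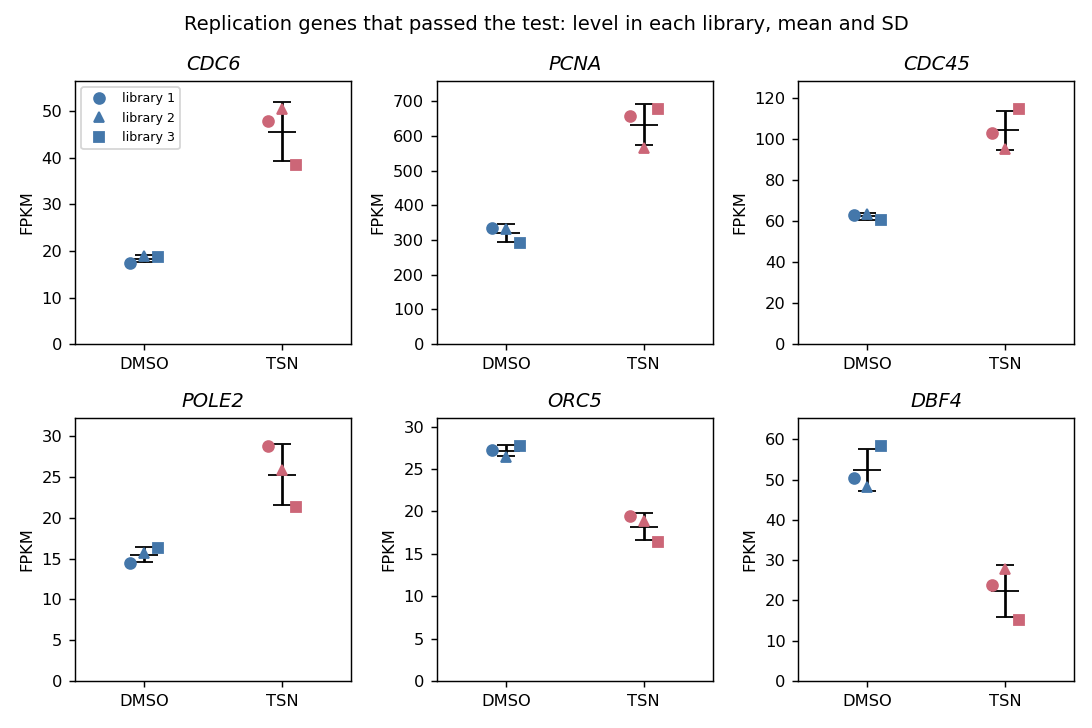
FPKM in each library for the 6 replication genes that passed the test, with DMSO in blue, TSN in red, a marker shape for each library number, and black bars for the mean and SD of 3 libraries; each axis starts at 0. In all 6 genes every TSN value lies on the same side of every DMSO value.

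The promoters of the genes that moved are shown because replication genes are textbook E2F targets. RefSeq windows from 250 bases before to 50 bases after the gene start were available for 42 of the 48 genes, of which 10 had more than 1 start. The letters searched, on both strands, were TTTGGCGC, TTTCCCGC, TTTGCCGC and TTTCGCGC, called E2F words here, as well as the E-box CACGTG and the box CCAAT. An E2F word was present in 22 of 42 members, 52.4%, beside 7.15% of the 8345 tested genes with a window and 3.99% of all 27305 genes in the RefSeq table. CCAAT was present in 61.9% of members beside 43.4% of tested genes, and CACGTG in 19.0% beside 13.1%. For genes with several starts, a word in any of their windows was counted.

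The windows of the 4 genes that rose, the 2 that fell, and MCM6, a helicase subunit that did not pass, follow 5′ to 3′ with E2F words in capitals.
CDC6, GRCh38.p14 chr17:40287629-40287928, plus strand: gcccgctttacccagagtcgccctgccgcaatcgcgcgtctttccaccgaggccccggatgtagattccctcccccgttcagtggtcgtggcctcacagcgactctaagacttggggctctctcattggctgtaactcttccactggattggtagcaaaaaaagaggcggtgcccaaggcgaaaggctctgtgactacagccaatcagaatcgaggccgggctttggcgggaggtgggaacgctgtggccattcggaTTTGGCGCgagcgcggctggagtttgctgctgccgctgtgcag
PCNA, GRCh38.p14 chr20:5126573-5126872, minus strand: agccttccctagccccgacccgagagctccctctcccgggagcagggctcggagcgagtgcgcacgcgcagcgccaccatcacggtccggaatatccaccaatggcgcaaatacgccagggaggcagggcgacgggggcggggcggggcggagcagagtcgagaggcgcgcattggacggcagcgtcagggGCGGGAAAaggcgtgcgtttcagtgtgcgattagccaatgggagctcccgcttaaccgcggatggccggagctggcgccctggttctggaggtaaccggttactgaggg
POLE2, GRCh38.p14 chr14:49688165-49688464, minus strand: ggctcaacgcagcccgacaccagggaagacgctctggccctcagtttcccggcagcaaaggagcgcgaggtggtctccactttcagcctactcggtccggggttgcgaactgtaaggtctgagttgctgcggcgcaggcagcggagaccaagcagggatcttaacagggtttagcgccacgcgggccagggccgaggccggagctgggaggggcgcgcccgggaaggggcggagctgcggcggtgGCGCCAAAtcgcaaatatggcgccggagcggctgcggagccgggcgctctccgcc
CDC45, GRCh38.p14 chr22:19479216-19479515, plus strand: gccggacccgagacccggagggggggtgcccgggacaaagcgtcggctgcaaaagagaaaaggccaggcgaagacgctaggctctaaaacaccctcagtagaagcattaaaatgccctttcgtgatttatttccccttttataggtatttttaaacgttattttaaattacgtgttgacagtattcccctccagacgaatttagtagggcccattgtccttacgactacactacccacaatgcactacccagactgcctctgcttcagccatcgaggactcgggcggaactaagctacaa
DBF4, GRCh38.p14 chr7:87876243-87876542, plus strand: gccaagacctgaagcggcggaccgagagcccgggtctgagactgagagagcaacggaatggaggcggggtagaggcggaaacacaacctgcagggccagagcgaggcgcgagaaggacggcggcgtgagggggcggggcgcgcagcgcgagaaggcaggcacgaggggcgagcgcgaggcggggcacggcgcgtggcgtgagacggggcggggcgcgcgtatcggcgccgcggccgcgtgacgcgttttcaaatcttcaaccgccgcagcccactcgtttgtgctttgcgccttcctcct
ORC5, GRCh38.p14 chr7:104207964-104208263, minus strand: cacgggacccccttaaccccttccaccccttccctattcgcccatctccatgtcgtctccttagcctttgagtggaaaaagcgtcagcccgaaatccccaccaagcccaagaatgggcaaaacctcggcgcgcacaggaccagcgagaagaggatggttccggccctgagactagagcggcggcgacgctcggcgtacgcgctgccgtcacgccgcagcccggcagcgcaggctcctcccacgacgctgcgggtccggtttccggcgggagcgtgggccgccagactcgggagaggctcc
MCM6, GRCh38.p14 chr2:135876394-135876693, minus strand: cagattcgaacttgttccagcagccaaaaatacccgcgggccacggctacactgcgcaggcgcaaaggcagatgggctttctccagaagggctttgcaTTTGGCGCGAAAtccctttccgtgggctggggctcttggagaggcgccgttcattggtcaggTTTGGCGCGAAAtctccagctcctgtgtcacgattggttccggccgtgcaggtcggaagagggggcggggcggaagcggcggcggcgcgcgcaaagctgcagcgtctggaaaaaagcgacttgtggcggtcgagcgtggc

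CDC6 held TTTGGCGC from 7 to 14 bases after the start, PCNA held TTTCCCGC on the reverse strand from -59 to -52, and POLE2 held TTTGGCGC on the reverse strand from -5 to 2, with the gene start counted as base 0. CDC45 had none of these letters in any of its 3 windows, nor had DBF4 or ORC5 in theirs. These positions count from the RefSeq start. In the printed windows it lay 277 bases from the GENCODE start for DBF4, 246 for CDC6 and 208 for POLE2, and 4 to 34 for the rest. The DBF4 window lies wholly after the GENCODE start of that gene, so bases before that start were not searched. MCM6 held 4 matches at 2 places, where a forward and a reverse word overlap. Among members that did not pass, 19 of 36 held an E2F word, 52.8%. Of the 4 that rose, 3 held such a word, and of the 2 that fell, 0 did, which are too few genes to compare. No E2F word overlapped CCAAT in the windows printed. A match describes letters only, and no binding was measured.

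In the origin recognition complex, ORC5 fell while ORC1 and ORC6 had values above 0 and ORC2, ORC3 and ORC4 below 0. ORC5 (ENSG00000164815, chromosome 7, 104126341 to 104208047) stood at 27.22, 26.42 and 27.71 FPKM in DMSO 1, 2 and 3, and at 19.39, 18.85 and 16.35 FPKM in TSN 1, 2 and 3. The groups did not overlap, and the log2 fold change was -0.55 ± 0.13 SE (limma adjusted p = 0.0331). ORC3 also had groups that did not overlap, with 27.61, 27.57 and 32.32 FPKM in DMSO and 23.5, 25.45 and 14.21 in TSN. It did not pass (-0.49 ± 0.23 SE, limma adjusted p = 0.212), and TSN 3 lay well below the other TSN libraries. ORC6, the most abundant subunit in DMSO, had 41.69, 43.9 and 49.52 FPKM there and 59.44, 58.66 and 39.1 FPKM in TSN, where TSN 3 fell inside neither the DMSO range nor that of the other TSN libraries (limma adjusted p = 0.546). ORC1, the subunit whose level is known to vary through the cell cycle, went from 40.16 ± 2.38 to 45.71 ± 3.72 FPKM (SD, n = 3; 95% interval of the log2 fold change -0.12 to 0.48). ORC2 and ORC4 had log2 fold changes of -0.14 and -0.08. In DMSO the subunit levels spanned 5.89-fold, from 7.642 FPKM for ORC4 to 45.04 for ORC6.

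The loading factor CDC6 rose with a log2 fold change close in size to the fall of DBF4, and which of them was larger depended on the libraries kept. CDC6 (ENSG00000094804, chromosome 17, 40287633 to 40304657) stood at 17.5, 18.85 and 18.72 FPKM in DMSO and at 48, 50.42 and 38.37 FPKM in TSN. Every TSN library was above 2 times every DMSO library, and the log2 fold change was 1.26 ± 0.15 SE (limma adjusted p = 0.00475). CDT1, which brings the helicase to the origin, had 169.7, 160 and 118.9 FPKM in DMSO and 215.5, 175.8 and 311.9 FPKM in TSN. Its groups did not overlap, but TSN 2 lay just above DMSO 1 while TSN 3 was far higher, and it did not pass (0.62 ± 0.26 SE, limma adjusted p = 0.159). GMNN encodes geminin, the inhibitor of CDT1. Its DMSO mean was 67.78 ± 6.9 FPKM and its TSN mean 86.86 ± 12.4, with overlapping groups (0.35 ± 0.16 SE, limma adjusted p = 0.198).

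No subunit of the MCM2-7 helicase passed the test. MCM7, the most abundant, had 429.7, 423.4 and 368.4 FPKM in DMSO and 475.7, 439.2 and 532 FPKM in TSN. Its groups did not overlap, yet the log2 fold change was 0.24 ± 0.16 SE (limma adjusted p = 0.339). MCM3, MCM4, MCM5 and MCM6 had log2 fold changes of 0.15, 0.16, 0.08 and 0.19, with overlapping groups and limma adjusted p from 0.493 to 0.722. The 95% intervals of these 5 subunits ended between 0.42 and 0.62 on the upper side and between -0.29 and -0.13 on the lower side. With TSN 3 left out and trends with exon length and GC content removed, MCM4 (0.30, limma adjusted p = 0.0145) and MCM6 (0.33, 0.0325) passed as higher. MCM2 had 64.58, 69.9 and 82.18 FPKM in DMSO and 83.3, 106.9 and 34.17 FPKM in TSN. TSN 1 and TSN 2 were above every DMSO library and TSN 3 below every one, which left a log2 fold change of -0.09 with a 95% interval from -1.08 to 0.89. Exons of MCM2 share 23.6% of their bases with other genes, mostly on the opposite strand, and the use of strand in counting was not stated. In DMSO the 6 subunits, which form a ring with a copy of each, spanned 5.64-fold in FPKM, from 72.22 for MCM2 to 407.2 for MCM7.

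MCM8, a paralogue known for its part in recombination, had 3.856 ± 0.581 FPKM in DMSO and 5.396 ± 1.37 in TSN, the lowest level of the 48 genes in DMSO. MCM10, which helps switch the loaded helicase on, had 12.34, 11.88 and 15.61 FPKM in DMSO and 15.52, 19.83 and 10.2 FPKM in TSN. Neither passed (limma adjusted p = 0.258 and 0.735), and for MCM10 the TSN libraries lay on both sides of the DMSO values.

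At the step that fires origins, DBF4 fell while CDC7 did not pass. DBF4 (ENSG00000006634, chromosome 7, 87876216 to 87909541) stood at 50.48, 48.22 and 58.34 FPKM in DMSO and at 23.93, 27.85 and 15.14 FPKM in TSN. All TSN values lay far below all DMSO values, and the log2 fold change was -1.23 ± 0.23 SE (limma adjusted p = 0.0208). CDC7, the kinase that DBF4 activates, had 15.06, 14.1 and 18.95 FPKM in DMSO and 17.93, 19.9 and 10.33 FPKM in TSN. Its means were 16.04 and 16.05 FPKM, and the 95% interval of its log2 fold change ran from -0.67 to 0.59. The ratio of DBF4 to CDC7 within each library was 3.35, 3.42 and 3.08 in DMSO and 1.33, 1.4 and 1.47 in TSN, a narrower spread in TSN than either gene had by itself. TICRR, also called treslin, which helps CDC45 to join, went from 12.08 ± 1.64 to 16.67 ± 4.84 FPKM with overlapping groups (limma adjusted p = 0.287).

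CDC45 rose, whereas the 4 GINS subunits that join the helicase with it did not pass. CDC45 (ENSG00000093009, chromosome 22, 19479459 to 19520612) stood at 63.01, 63.44 and 60.34 FPKM in DMSO and at 102.7, 95.2 and 114.4 FPKM in TSN. The groups were far apart, with a log2 fold change of 0.73 ± 0.13 SE (limma adjusted p = 0.0152). GINS2, the most abundant GINS subunit, had 42.11, 42.65 and 37.19 FPKM in DMSO and 39.56, 31.77 and 54.23 FPKM in TSN, on both sides of the DMSO values. The log2 fold changes of GINS1, GINS2, GINS3 and GINS4 were 0.18, 0.01, -0.10 and -0.39, and limma adjusted p ran from 0.403 to 0.98. GINS4 stood at 1.922 FPKM in TSN 3, against 5.163 to 8.117 FPKM in the other libraries, and 23.6% of its exon bases lie in other genes.

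**Figure D4:**
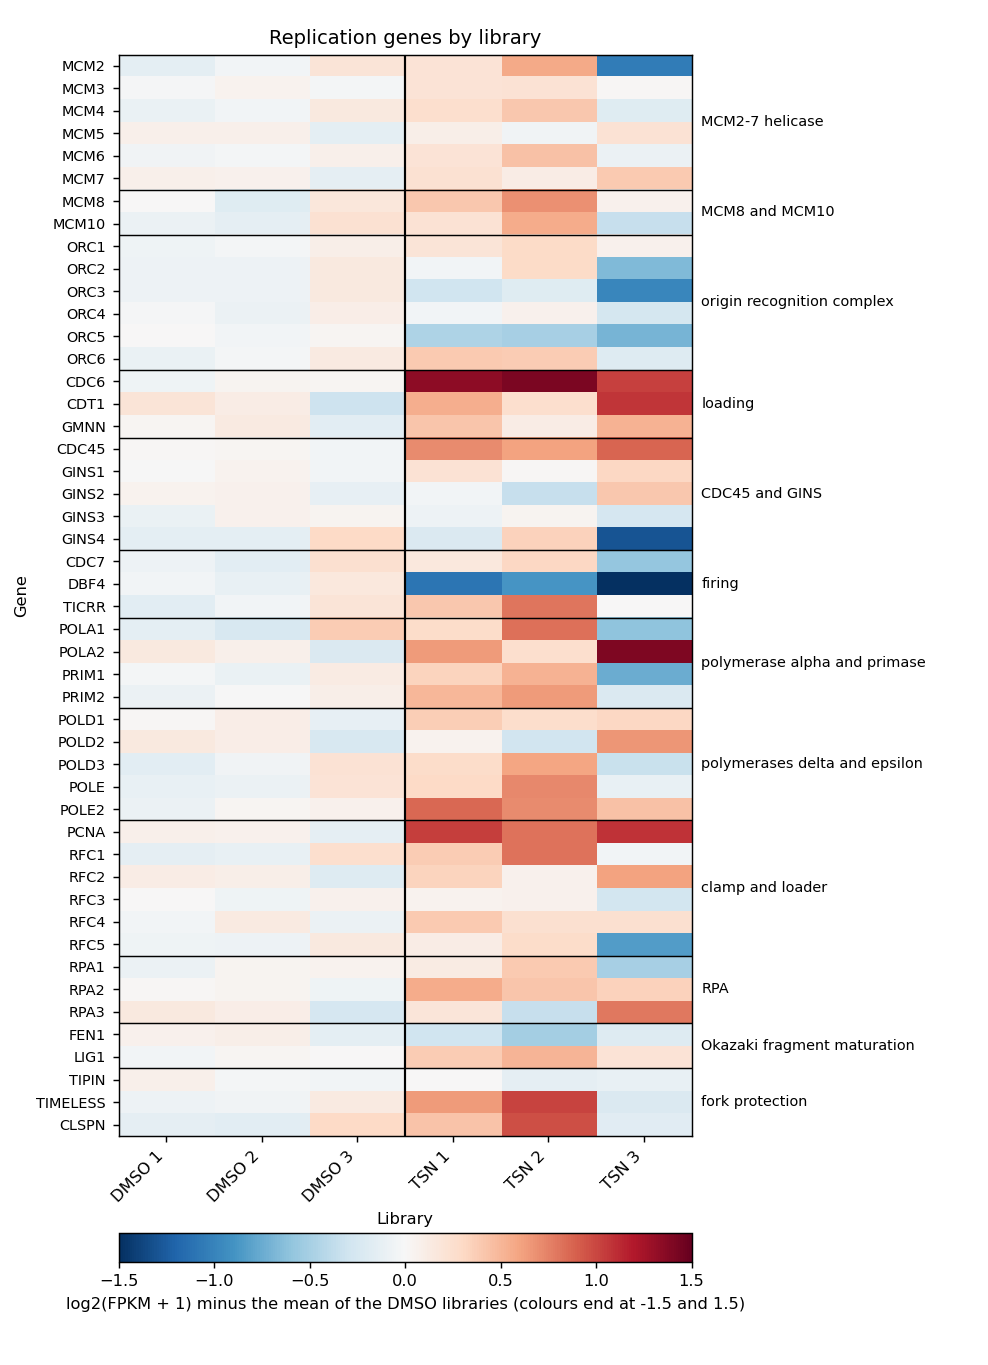
Each row is a replication gene and each column a library, grouped by complex; colour gives log2(FPKM + 1) minus the mean of the DMSO libraries, red for higher and blue for lower. CDC6, CDC45, POLE2 and PCNA are red and ORC5 and DBF4 blue in all 3 TSN columns, while MCM2, GINS4, PRIM1, TIMELESS and RFC5 are blue in TSN 3 but red or pale in TSN 2.

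Polymerase alpha and primase, which lay down the first primer, had no call among 4 genes. POLA2, the accessory subunit, had 8.161, 7.675 and 6.093 FPKM in DMSO and 11.85, 8.835 and 20.83 FPKM in TSN. The groups did not overlap, though TSN 3 was far above the other TSN libraries (0.76 ± 0.31 SE, limma adjusted p = 0.15). A same-strand gene covers 35.1% of the exon bases of POLA2, which makes its level less certain. PRIM1, the catalytic primase subunit and the most abundant of the 4, had 28.13, 26.78 and 31.3 FPKM in DMSO and 36.45, 41.72 and 16.71 FPKM in TSN, so that TSN 1 and TSN 2 were above and TSN 3 below all DMSO values. PRIM1 shares 21.6% of its exon bases with other genes. POLA1, the catalytic polymerase subunit, and PRIM2, the large primase subunit, had log2 fold changes of 0.17 and 0.31 with overlapping groups. Single libraries decided 3 of these genes. Without TSN 3, PRIM1 (0.43, limma adjusted p = 0.0492) and PRIM2 (0.57, 0.0175) passed as higher, and without TSN 2, POLA2 did (1.02, 0.0487).

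Of the polymerases that extend the strands, POLE2 rose and POLE, POLD1, POLD2 and POLD3 did not pass. POLE2 (ENSG00000100479, chromosome 14, 49643555 to 49688422) stood at 14.43, 15.73 and 16.24 FPKM in DMSO and at 28.81, 25.81 and 21.28 FPKM in TSN. The groups did not overlap, and the log2 fold change was 0.67 ± 0.15 SE (limma adjusted p = 0.0331). POLE, the catalytic subunit, went from 46.02 ± 5.97 to 58.43 ± 16.9 FPKM with overlapping groups (0.31 ± 0.23 SE, limma adjusted p = 0.416), and the ratio of POLE2 to POLE also overlapped between groups. POLD1, the catalytic subunit of polymerase delta, had 25.08, 26.55 and 22.69 FPKM in DMSO and 32.21, 29.89 and 30.85 FPKM in TSN, which did not overlap (0.31 ± 0.12 SE, limma adjusted p = 0.144). POLD2, the most abundant of these subunits, had 107.7, 104.5 and 82.31 FPKM in DMSO and 100.9, 79.55 and 154.3 FPKM in TSN, with TSN 2 below and TSN 3 above every DMSO value.

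PCNA rose, while its loader RFC had no call. PCNA (ENSG00000132646, chromosome 20, 5114953 to 5126626) was among the most abundant members, with 335.6, 332.8 and 290.9 FPKM in DMSO and 656.5, 564.2 and 676.8 FPKM in TSN. The lowest TSN library lay well above the highest DMSO library, and the log2 fold change was 0.98 ± 0.16 SE (limma adjusted p = 0.0115). RFC2, the most abundant loader subunit, had 123.6, 120.9 and 99.23 FPKM in DMSO and 144.3, 119.1 and 173.6 FPKM in TSN, with TSN 2 inside the DMSO range (limma adjusted p = 0.274). RFC4 had groups that did not overlap, 70.69 ± 5.84 and 86.48 ± 5.61 FPKM, and did not pass (0.29 ± 0.13 SE, limma adjusted p = 0.188). RFC1, RFC3 and RFC5 had log2 fold changes of 0.39, -0.05 and -0.15. The ratio of PCNA to RFC4 within each library was 4.91, 4.3 and 4.38 in DMSO and 7.06, 6.78 and 8.13 in TSN.

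RPA, the protein that coats single-stranded DNA, had no call among its 3 subunits. RPA2, the middle subunit, had 115.9, 118.3 and 109.5 FPKM in DMSO and 169.1, 153.4 and 145.6 FPKM in TSN. The groups did not overlap, but RPA2 did not pass (0.44 ± 0.13 SE, limma adjusted p = 0.0662). It passed without TSN 3 (0.49, limma adjusted p = 0.0261). RPA1, the large subunit, stood at 31.59 ± 1.8 and 32.67 ± 9.93 FPKM, and RPA3 at 29.85 ± 4.52 and 36.24 ± 14.6 FPKM.

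The enzymes that finish Okazaki fragments had opposite signs, although neither passed. FEN1, which cuts the displaced flap, had 214.8, 217.9 and 185.1 FPKM in DMSO and 166.2, 143.7 and 179.5 FPKM in TSN (-0.34 ± 0.15 SE, limma adjusted p = 0.19). LIG1, the ligase that seals the nick, had 82.4, 86.67 and 85.27 FPKM in DMSO and 110.9, 120.8 and 97.96 FPKM in TSN (0.37 ± 0.13 SE, limma adjusted p = 0.119). The groups did not overlap for either gene. The ratio of FEN1 to LIG1 was 2.61, 2.51 and 2.17 in DMSO and 1.5, 1.19 and 1.83 in TSN, again without overlap. Neither gene passed under both scalings. LIG1 passed under median scaling (limma adjusted p = 0.0484) but not quantile normalization (0.295), and FEN1 under quantile normalization (0.0244) but not median scaling (0.534). FEN1 also passed with exon length and GC trends removed (-0.45, limma adjusted p = 0.0116), and LIG1 without TSN 3 (0.44, 0.0279). Exons of FEN1 share 8.68% of their bases with other genes.

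The fork protection genes TIMELESS, TIPIN and CLSPN, which keep helicase and polymerases together and relay checkpoint signals, had no call. TIMELESS, the most abundant of the 3 in DMSO, had 33.69, 34.15 and 39.01 FPKM there and 56.03, 72.7 and 30.47 FPKM in TSN. Again TSN 1 and TSN 2 were above and TSN 3 below every DMSO library (0.48 ± 0.31 SE, limma adjusted p = 0.343). Without TSN 3 the log2 fold change of TIMELESS was 0.83 and passed (limma adjusted p = 0.0152), and without TSN 2 it was 0.21 (0.56). TIPIN, the partner of TIMELESS, stood at 25.62 ± 1.17 and 24.14 ± 1.38 FPKM, so the ratio of these partners was not constant across libraries. CLSPN, which encodes claspin, had 8.342 ± 1.72 and 11.92 ± 4.93 FPKM with overlapping groups (limma adjusted p = 0.411).

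The TSN libraries differed among themselves in a way that many members shared. TSN 3 was the lowest of the TSN libraries in 32 of the 48 genes and the highest in 13, and the same counts over all genes were not made. TSN 2 was the highest in 28 and the lowest in 16, and TSN 1 the lowest in 0. Relative to the mean of TSN 1 and TSN 2, TSN 3 ran from -1.44 for MCM2 to 0.96 for POLA2 on the log2(FPKM + 1) scale. Across the 48 genes this difference correlated with GC content at r = 0.39 and with log2 exon length at r = -0.34, given as a description of genes that share the same libraries. Over 11242 genes, the deviation of TSN 3 from its group mean correlated with GC content at r = 0.45 and with log2 exon length at r = -0.31. For DMSO 3 the value with GC content was r = -0.44, so these trends are not particular to the members. DMSO 3, set against DMSO 1 and DMSO 2, moved the opposite way, with r = -0.49 for GC content and r = -0.91 between the TSN and DMSO differences. Their part in the results was not tested beyond the fits that remove it. Once trends with exon length and GC content were taken out of every library, 7 members passed as higher and 3 as lower, 20.8% of members beside 26.2% of all genes. In a fit added with the values in view that left out DMSO 3 and TSN 3, 18 members passed as higher and 3 as lower, 43.8% of members beside 27.6% of all genes. With TSN 3 left out and the trends removed, also added with the values in view, 22 passed as higher and 3 as lower, 52.1% of members beside 36.7% of all genes. All 6 genes above passed in these 3 fits.

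**Figure D5:**
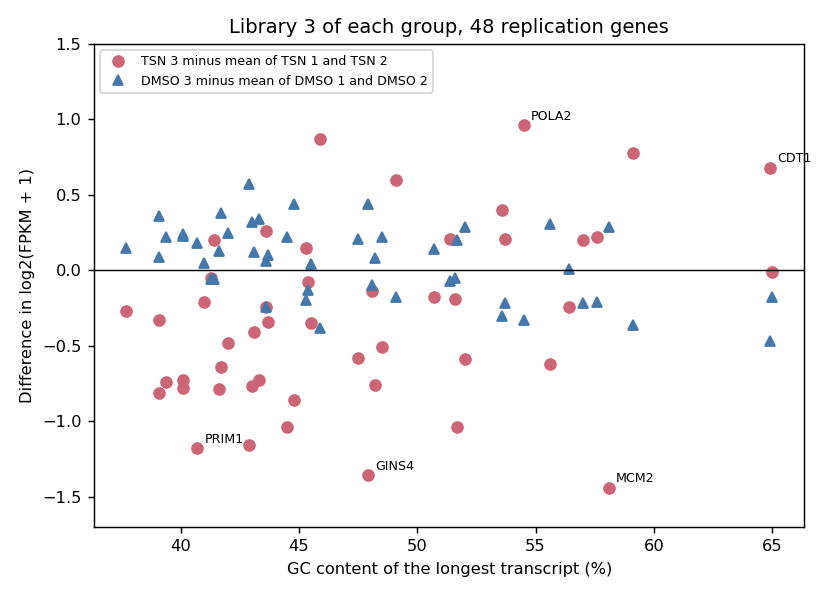
Each of the 48 replication genes is plotted by the GC content of its longest transcript in percent and by the difference in log2(FPKM + 1) between library 3 and the mean of the other libraries of its group, red circles for TSN and blue triangles for DMSO. TSN 3 runs from -1.44 for MCM2 to 0.96 for POLA2 and tends to be lower at low GC content (r = 0.39), while DMSO 3 has the opposite trend (r = -0.49).

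Partner genes of replication outside the 48 were read from lists that were written down with earlier results of these data known. Of 14 licensing and firing partners, 0 passed by limma in either direction, beside 14.9% of all genes. MCM9 and CUL4A had an unadjusted limma p under 0.05 as lower and DONSON as higher. Their limma adjusted p were 0.129, 0.055 and 0.0639. The share of all genes under that unadjusted p was not counted, so these genes are no result about the list. The median log2 fold change of that list was -0.09. Of 27 fork and chromatin partners, 24 were tested, 2 rose and 2 fell, 16.7% beside 14.9% of all genes, with a median log2 fold change of 0.12. PCLAF, which binds PCNA, had 38.43, 33.53 and 22.35 FPKM in DMSO and 90.56, 56.71 and 126.6 FPKM in TSN (1.47 ± 0.33 SE, limma adjusted p = 0.0336). SLBP, which binds histone mRNA, rose to 210.1 ± 18.6 FPKM in TSN, with 132.2 ± 6 in DMSO (0.66 ± 0.13 SE, limma adjusted p = 0.0237). POLE3, the histone-fold subunit of polymerase epsilon, fell from 132.9 ± 5.81 to 76.87 ± 4.86 FPKM (-0.78 ± 0.12 SE, limma adjusted p = 0.0114), opposite in sign to POLE2. The histone chaperone ASF1A fell from 25.68 ± 0.443 to 13.58 ± 2.31 FPKM (-0.88 ± 0.16 SE, limma adjusted p = 0.0161).

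Some members have a close neighbour. A protein-coding gene started upstream on the opposite strand within 1000 bases of the gene's start in 12 of 48 members, 25.0%, beside 10.8% of the 9711 protein-coding genes tested. CDC45 faces UFD1, a protein of the ubiquitin pathway, at a distance of 244 bases, and UFD1 also rose, with mean FPKM of 16.36 in DMSO and 24.92 in TSN (0.58 ± 0.12 SE, limma adjusted p = 0.0222). PCNA faces CDS2, a phospholipid synthesis gene, at 160 bases, and CDS2 went from 5.302 to 7.123 FPKM without passing (0.35 ± 0.24 SE, limma adjusted p = 0.367). MCM4 starts 2 bases from PRKDC, a DNA repair kinase gene, and neither passed.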

How the data were processed

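RNA was extracted with RNAiso Plus from 3 TSN and 3 DMSO samples and sequenced on a NovaSeq X Plus, per the labels' protocols. The authors deposited 1 table of 30741 genes in FPKM; the unit is not written there and was read from the values. The submitters' processing notes name GRCh38 and DESeq2 1.26.0. For the aligner, counter, annotation, gene lengths and use of strand, the sources used here give nothing. FPKM cannot show a shift in the RNA content of a cell.

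The test was limma 3.58.1 in R 4.3.3, fitted to log2(FPKM + 1) with trended, robust moderation of the variance. It covered the 11440 genes that reached 1 FPKM in 3 or more libraries, with Benjamini-Hochberg adjustment over them all and a threshold of 0.05. Fold changes on this scale understate the change of low genes. Errors are SE of the moderated fit, and intervals are 95%. Depth came from single-exon genes, where 94.4% to 95.5% of low values times exon length fell within 0.1 of a whole multiple of 1 step. DMSO 1 and DMSO 2 were the closest pair and still differed beyond fragment counting (chi-square over its degrees of freedom 12.6, 11101 genes), so they stayed separate. Gene places, exon overlaps, lengths and GC content came from GENCODE 29, where 93.7% of the table's genes were found. Promoter windows came from RefSeq on GRCh38.p14.

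The full values given are those of each member past the threshold and, in each complex, of the most abundant member that did not pass. From the partner lists, up to 4 genes called in each direction are named. Further members with groups that did not overlap, the ratios between genes, MCM6 as a printed sequence, the facing genes, and MCM9, CUL4A and DONSON were chosen after their values were seen. The members and lists were chosen with earlier results of these data known. The procedure was tested on simulated data with known changes. The simulated noise was independent for each gene and library, so that test does not cover trends that genes of a library share. Alternatives were a pseudocount of 0.1, all genes without a filter, only genes averaging 5 FPKM or more, median scaling, quantile normalization, plain moderation, removal of spline trends (5 degrees of freedom) on exon length and GC content, a replicate block, and each library left out. Python 3.11.15 (pandas 2.3.3, numpy 2.4.6) made the tables, and matplotlib 3.10.9 drew the figures.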

Additional observations from a re-analysis of the deposited data

How the results depend on the processing

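The number of calls depended on the libraries, the filter, the removal of exon length and GC trends, and the replicate block. The direction of the 6 called members did not change in any of the 17 alternatives, but many of these could not have changed it. With 1 library left out, 24 to 2513 genes were called over all genes, 0 to 9 members as higher and 0 to 2 as lower. In either direction, 0% to 22.9% of members were called, beside 0.217% to 22.6% of all genes. The median log2 fold change of the members ran from 0.13 to 0.32. With no filter, 30741 genes were tested and 777 passed, with 2 members higher (CDC6 and PCNA) and 0 lower. That is 4.17% of members beside 2.53% of all genes. In that fit 8 members had an unadjusted limma p under 0.05, and the share of all genes under it was not counted. With a mean of at least 5 FPKM, 1002 genes passed. With exon length and GC trends removed, 2949 genes and 7 members as higher passed (20.8% of members in either direction beside 26.2% of genes). Without DMSO 3 and TSN 3, 2978 genes and 18 members as higher passed (43.8% of members in either direction beside 27.6% of genes). With TSN 3 left out and the trends removed, 4013 genes and 22 members as higher passed (52.1% of members in either direction beside 36.7% of genes). These last fits were chosen after the data were seen, and the cause of the differences was not tested.

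Same-numbered libraries did not deviate together: the correlation of their deviations from the group means was -0.317, -0.646 and -0.835 for numbers 1, 2 and 3, so the number was not treated as a pairing. Between libraries of different numbers it ran from -0.762 (DMSO 1 with TSN 2) to 0.865 (DMSO 3 with TSN 2). Libraries of both groups thus shared deviations under other numbers, which the main fit does not take into account. With the replicate block, 0 genes passed over all genes by limma, 0 members as higher and 0 as lower. In that fit 6 members had an unadjusted limma p under 0.05, and the share of all genes under it was not counted. With the block and the trends removed together, 492 genes passed, with 2 members higher and 0 lower, 4.17% of members beside 4.38% of all genes. With 3 libraries per group, intervals were wide for genes that vary between the TSN libraries, such as MCM2 (95% interval -1.08 to 0.89; log2 fold change 0.39 without TSN 3 and -0.42 without TSN 2).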
